A study of Mus musculus with 9 samples.

Results

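The p53 transcription factor (Trp53) and 9 genes tied to it or to arrest of the cell cycle (Cdkn1a, Cdkn2a, Mdm2, Ccng1, Sesn1, Sesn2, Plk2, Plk3 and Trp53inp1) were followed in mouse kidney through closure of the ureter and its release. The 10 genes form a named list, and every array probe whose RefSeq accession maps to one of them was taken, which gave 16 probes. A gene was tested through its brightest probe, provided that 3 or more of the 9 arrays put that probe well above background. Of the 10 genes 9 were tested, among 17741 genes in all, and Cdkn2a was not, because its only probe was not well above background on any array.

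Whole left kidneys from male ISAM mice aged 10 weeks, on a mixed strain background, were measured with 1 single-colour Agilent array per kidney sample, from 500 ng of total RNA labelled with Cy3. ISAM mice model anaemia from lack of erythropoietin. Every sample has the genotype Epo-/-::3.3K-Epo3'-Tg458, in which the Epo gene is deleted and an Epo transgene is carried, so no kidney with an intact Epo gene was compared. In ClipR-14 kidneys (3 samples) a vascular clip had closed the left ureter for 2 days and had then been off for 12 days. In Clip kidneys (3 samples) the ureter had been closed for 2 days. The control arm (3 samples) joined 2 sham-treated kidneys and 1 untreated kidney, for which the labels give no day of collection. The labels number the samples of a group as replicates without saying how they were raised or housed, so the p-values measure the spread between these samples, and 3 per arm limit the precision.

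p53 is a transcription factor that healthy cells keep scarce, because Mdm2, a ubiquitin ligase and itself a p53 target, marks it for destruction. After DNA damage and other stress p53 builds up and switches on genes that halt the cell cycle, above all Cdkn1a, together with genes of repair, redox control and cell death. In injured kidney p53 and the Cdkn1a product p21 are known for holding tubule cells in arrest.

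RefSeq promoter windows of 300 bases (250 before and 50 after a gene's start, build GRCm38.p6) were found for 9 of the 10 genes, 12 windows in all. There was no entry for Trp53inp1. An adjoining pair of p53 half-sites with at most 1 mismatch lay in 2 of the 12 windows, 1 each for Cdkn1a and Ccng1, and in 0.088% of all 32851 windows of the table. With a gap of up to 13 bases allowed, such a pair lay in 2 of the 12 windows and in 1.09% of all. With that gap and at most 2 mismatches, a pair lay in 3 of the 12 windows and in 10.1% of all. The letters TGACG, on either strand, lay in 4 of the 12 windows and in 20.8% of all, and TGACGTCA, which holds TGACG on both strands, lay in 1 of the 12, that of Plk2, and in 1.79% of all. The motifs and the allowed mismatch and gap were chosen with the windows and the levels known, so these matches describe the letters only. The 250 bases before the start are shown for the 3 genes that passed in Clip against control, where Ccng1 passed by 1 of its 2 probes. The Cdkn1a window belongs to the more upstream of its 2 starts (chr17:29090729-29090978, plus strand) and the Ccng1 window to its only start in the table (chr11:40755287-40755536, minus strand), with the p53 pair in capitals, at positions -51 to -32 and -195 to -176 from the start. The Plk3 window (chr4:117133964-117134213, minus strand) has TGACG in capitals.
Cdkn1a: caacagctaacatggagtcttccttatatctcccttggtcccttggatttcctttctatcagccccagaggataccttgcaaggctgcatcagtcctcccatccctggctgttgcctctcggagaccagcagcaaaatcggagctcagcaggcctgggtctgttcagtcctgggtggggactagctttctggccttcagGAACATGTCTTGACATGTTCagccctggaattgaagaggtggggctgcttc
Ccng1: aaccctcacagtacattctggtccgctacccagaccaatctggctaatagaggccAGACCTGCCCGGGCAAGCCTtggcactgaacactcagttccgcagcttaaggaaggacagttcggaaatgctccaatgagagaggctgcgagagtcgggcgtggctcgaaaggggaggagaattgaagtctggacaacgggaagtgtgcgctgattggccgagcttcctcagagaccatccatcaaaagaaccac
Plk3: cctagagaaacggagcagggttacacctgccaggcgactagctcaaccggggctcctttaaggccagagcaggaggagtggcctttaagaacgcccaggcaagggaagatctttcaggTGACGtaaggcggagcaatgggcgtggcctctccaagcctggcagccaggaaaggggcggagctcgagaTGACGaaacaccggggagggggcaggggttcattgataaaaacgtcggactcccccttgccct

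The arrays differed in bulk signal and near the background. The 75th percentile of the signal was 363, 392 and 425 in ClipR-14 and 388, 421 and 439 in Clip arrays. It was 321 and 320 in sham and 415 in untreated arrays, on each slide below the Clip and the ClipR-14 array. Between 52.1% and 57.5% of probes were well above background, and 0 spots were saturated. The lowest signal well above background was 21.7 to 27.3 in ClipR-14, 16.4 to 18.4 in Clip and 16.8 to 20.1 in control arrays. A level below is the log2 of a probe's signal over its array's 75th percentile, so 0 is that percentile. Small changes between arms therefore depend on this scaling. Levels of different probes are not compared. Each of 3 slides held a ClipR-14, a Clip and a control array; the untreated kidney was on slide 3, which has another scan day than slides 1 and 2.

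The RNA levels of cell type and injury markers differed between the arms, and in whole kidneys fewer cells of a type and less RNA per cell cannot be told apart. In Clip against control kidneys 12 of 12 tubular injury markers, 9 of 10 macrophage markers, 9 of 10 fibroblast markers, 4 of 7 T and NK cell markers, 3 of 8 urothelium markers and 2 of 8 endothelium markers were higher. In the same comparison 7 of 7 thick limb and distal tubule markers, 7 of 8 proximal tubule markers, 3 of 6 collecting duct markers, 3 of 5 podocyte markers, 2 of 6 adipocyte markers and 2 of 8 endothelium markers were lower. No neutrophil marker of 3 and no adrenal marker of 2 tested passed in limma (0 and 1 at an unadjusted p under 0.05), and 6 of the 8 adrenal markers with a probe were not well above background on any array. The summed linear level of the 8 proximal tubule markers was 426 to 528 in ClipR-14, 125 to 196 in Clip and 488 to 591 in control kidneys, and all 8 were well above background on every array. The 10 macrophage markers summed to 13.95 to 16.8 in ClipR-14, 32.7 to 37.6 in Clip and 8.56 to 10.6 in control kidneys. Fibroblast markers summed to 82.7 to 103 in ClipR-14, 210 to 262 in Clip and 47.1 to 59.7 in control kidneys. Injury markers summed to 216 to 252 in ClipR-14, 745 to 834 in Clip and 167 to 200 in control kidneys. In ClipR-14 against Clip kidneys 8 of 8 proximal tubule markers were higher, and 12 of 12 injury markers and 9 of 10 macrophage markers were lower. The part of these cell types in the changes described next was not tested.

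The first question was how p53 and its targets stood at the end of 2 days of obstruction. Cdkn1a was higher in Clip than in control kidneys, Plk3 and Ccng1 were lower, and the other 6 tested genes did not pass the test. Cdkn1a rose 2.34-fold, Plk3 fell 7.81-fold and Ccng1 fell 1.74-fold by the brighter of its 2 probes, while its dimmer probe did not pass. So 1 of 9 genes passed as higher and 2 of 9 as lower (limma, Benjamini-Hochberg adjusted over all genes), where 21.4% of all genes passed as higher and 27.6% as lower; with 9 genes, these counts do not set the list apart from the background. The median change of the 9 was -0.33 on the log2 scale, against -0.09 over all genes tested. Of the 9 changes 8 were below 0, where 56.1% of all genes were, 6 had arms that did not overlap (58.6% of all genes), and 7 had the same sign on all 3 slides (76.0% of all genes). A fit with slide as a block called 6 of the 9, adding Trp53, Sesn1 and Plk2, all lower in Clip, and it called 58.3% of all genes.

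**Figure D1:**
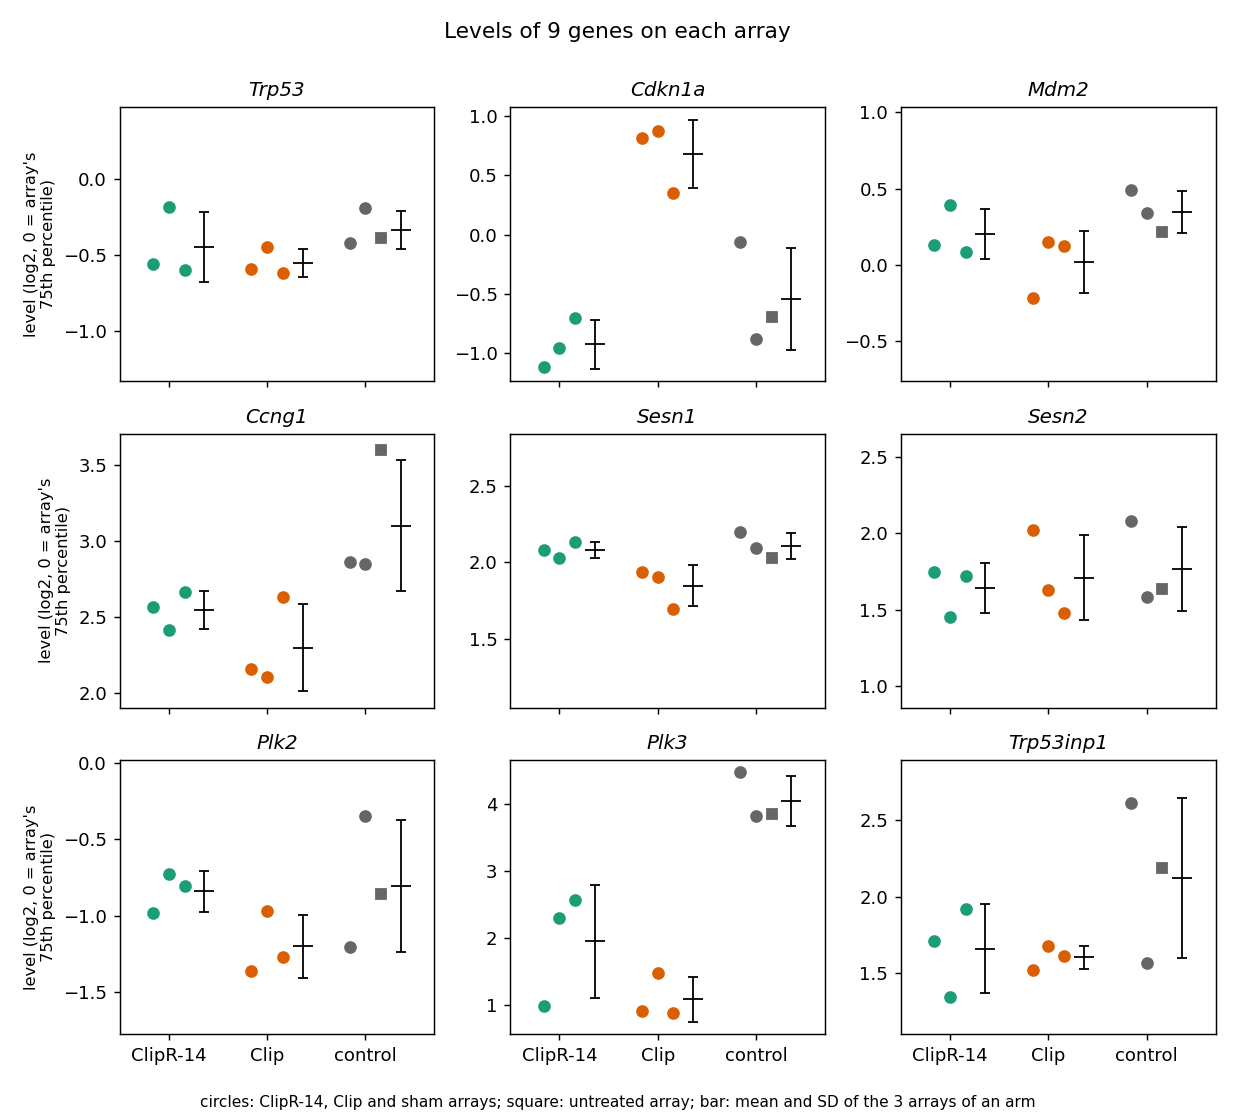
Level of the brightest probe of each tested gene on every array, as log2 of the signal over the array's 75th percentile, with ClipR-14 left of Clip and Clip left of control; circles are ClipR-14, Clip and sham arrays, squares the untreated array, and bars the mean and SD of 3 arrays. Cdkn1a stands apart in Clip (0.35 to 0.88), while Plk3 is at 3.81 to 4.47 in control arrays and at most 2.56 on the other arrays.

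Trp53 itself was read by 2 probes that did not move alike. The brighter probe was at -0.59, -0.45 and -0.62 in Clip kidneys, against -0.42 and -0.19 in sham and -0.39 in untreated kidneys. The arms were narrowly apart, with every Clip array below every control array, but the change of -0.22 ± 0.13 (SE, n = 3 per arm) did not pass (limma, adjusted p = 0.197). With slide as a block the same change had an adjusted p of 0.0437, and within the slides it was -0.18, -0.26 and -0.23.

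The dimmer Trp53 probe was at -0.34, -0.61 and -0.41 in Clip kidneys, against -1.27 and -1.63 in sham and -1.50 in untreated kidneys. All 3 Clip arrays were well above all control arrays, and this probe rose 2.01-fold (log2 change 1.01 ± 0.16; limma, adjusted p = 0.00113 over 23543 probes, of which 19.9% were higher and 27.1% lower). The mean of both probes rose by 0.39 (limma, adjusted p = 0.00303). This follows from the larger change of the dimmer probe and is no separate reading. Both probes carry the same RefSeq accession and were well above background on all 9 arrays, and the files used here hold no probe sequences or positions. The direction for Trp53 RNA is therefore not settled by these arrays.

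Mdm2, the ligase that marks p53 for destruction, was at -0.22, 0.15 and 0.12 in Clip kidneys, against 0.49 and 0.34 in sham and 0.21 in untreated kidneys. Clip arrays lay below control arrays with little space between them, and the change of -0.33 ± 0.14 did not pass (limma, adjusted p = 0.0782). Its dimmer probe gave -0.29 ± 0.17 with overlapping arms. Mdm2 did not pass in any of 17 alternative fits, with adjusted p between 0.0654 and 0.243.

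Cdkn1a encodes p21, which blocks the cyclin-dependent kinases that carry cells from G1 into S phase. Its probe was at 0.82, 0.88 and 0.35 in Clip kidneys, against -0.06 and -0.88 in sham and -0.70 in untreated kidneys. Each Clip array was above each control array, and sham 1 was the highest of the control arm. The rise was 1.23 ± 0.23 on the log2 scale (95% interval 0.69 to 1.77; limma, adjusted p = 0.00265). Within slides 1, 2 and 3 the difference was 0.88, 1.76 and 1.05. Cdkn1a passed in all 17 alternative fits, with changes between 0.96 and 1.47.

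Cdkn2a, which encodes the inhibitors p16 and ARF, the second of which blocks Mdm2, was not well above background in any kidney. Its level lay between -6.48 and -5.93 in ClipR-14, between -6.78 and -6.57 in Clip and between -6.44 and -6.25 in control kidneys. At such levels no change is given.

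Ccng1 encodes cyclin G1, a long-known p53 target that works with a phosphatase on Mdm2. Its brighter probe was at 2.16, 2.11 and 2.63 in Clip kidneys, against 2.86 and 2.85 in sham and 3.60 in untreated kidneys. The arms did not overlap, and the untreated kidney was the highest by a wide margin. Ccng1 fell by 0.80 ± 0.22 on the log2 scale (limma, adjusted p = 0.0173), and by 0.70, 0.74 and 0.97 within the slides.

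The fall of Ccng1 rests on its brighter probe. The dimmer one was at 1.18, 0.92 and 1.26 in Clip kidneys, against 1.54 and 1.25 in sham and 0.94 in untreated kidneys, with overlapping arms and a change of -0.12 ± 0.18 (limma, adjusted p = 0.609). The brighter probe no longer passed without Clip 1 (adjusted p = 0.0584) or without Clip 2 (adjusted p = 0.0631). With the sham kidneys alone as control the fall was 0.55, with an adjusted p of 0.0303.

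Plk3, a polo-like kinase linked in cultured cells to stress responses and to p53, had the largest change of the 9 genes in size. Its probe was at 0.90, 1.47 and 0.87 in Clip kidneys, against 4.47 and 3.81 in sham and 3.85 in untreated kidneys. The highest Clip array was far below the lowest control array. Plk3 fell by 2.97 ± 0.40 on the log2 scale (95% interval -3.88 to -2.05; limma, adjusted p = 0.000402), while 10.3% of all genes were at least 2-fold lower in Clip. The fall held within slides 1, 2 and 3, at -3.57, -2.35 and -2.98, and in all 17 alternative fits, where it lay between -3.16 and -2.75.

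Plk2, a related polo-like kinase and also a p53 target, was at -1.37, -0.97 and -1.27 in Clip kidneys, against -1.21 and -0.35 in sham and -0.86 in untreated kidneys. Sham 1 lay among the Clip arrays, and the change of -0.40 ± 0.21 did not pass (limma, adjusted p = 0.153). Leaving out sham 1 gave -0.60, which passed (adjusted p = 0.0348), as did the fit with a slide block (adjusted p = 0.0337).

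Sesn1 and Sesn2 encode sestrins, stress proteins that restrain mTORC1 and protect against oxidants. The brightest of 3 Sesn1 probes was at 1.94, 1.91 and 1.69 in Clip kidneys, against 2.20 and 2.09 in sham and 2.03 in untreated kidneys. The arms lay apart by a small step, and the change of -0.26 ± 0.10 just missed the threshold (limma, adjusted p = 0.0563, and 0.0373 with slide as a block). With quantile normalization the change was -0.098 (limma, adjusted p = 0.448).

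The second Sesn1 probe was at -2.29, -2.60 and -2.53 in Clip kidneys, against -1.84 and -1.91 in sham and -2.10 in untreated kidneys. This probe fell by 0.52 ± 0.12 (limma, adjusted p = 0.00612 over all probes), and the arms did not overlap. The last Sesn1 probe was not well above background on any array. Sesn2 was at 2.02, 1.63 and 1.48 in Clip kidneys, against 2.08 and 1.58 in sham and 1.63 in untreated kidneys, with overlapping arms and a change of -0.06 (95% interval -0.48 to 0.37; limma, adjusted p = 0.825).

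Trp53inp1 encodes a small p53-induced nuclear protein that acts with p53 in arrest and cell death. Its brighter probe was at 1.52, 1.67 and 1.61 in Clip kidneys, against 2.62 and 1.57 in sham and 2.19 in untreated kidneys. The Clip arrays were close together while sham 1 and sham 2 were the highest and lowest of the control arm, and the change of -0.52 ± 0.25 did not pass (limma, adjusted p = 0.121). Without sham 2 it was -0.80 and passed (adjusted p = 0.0137). The dimmer probe gave -0.67 ± 0.26 with an adjusted p of 0.0661 and arms that did not overlap.

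**Figure D2:**
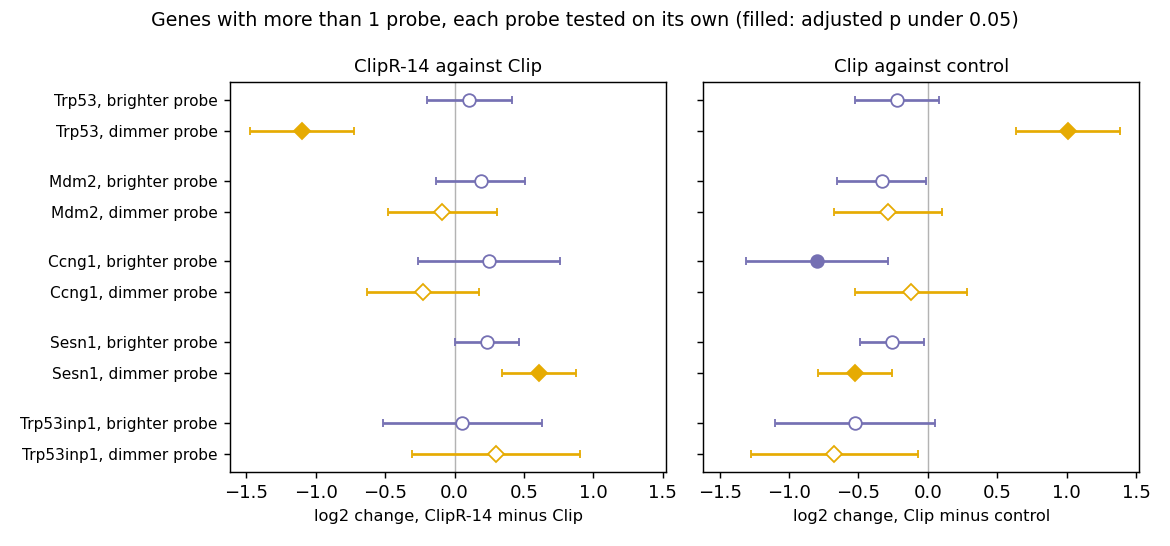
Log2 change with its 95% interval for each probe of the 5 genes with more than 1 probe past the filter, in ClipR-14 against Clip (left) and Clip against control (right); circles are brighter and diamonds dimmer probes, filled where the adjusted p was under 0.05. The probes of Trp53 fall on opposite sides of 0 in both comparisons, at 1.01 and -0.22 in Clip against control.

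The next question was where these genes stood 12 days after the clip had been removed, against the end of obstruction. Cdkn1a was the only one of the 9 genes to pass in ClipR-14 against Clip kidneys, and it was lower by 3.05-fold. So 0 of 9 passed as higher, where 23.5% of all genes did, and 1 of 9 as lower, where 17.4% did (limma). An unadjusted limma p under 0.05 was found for 2 of the 9 and for 8705 of all 17741 genes. The median change of the 9 was 0.19, against 0.08 over all genes tested.

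Cdkn1a was at -1.12, -0.96 and -0.71 in ClipR-14 kidneys, against 0.82, 0.88 and 0.35 in Clip kidneys. The arms were far apart, with a change of -1.61 ± 0.23 (limma, adjusted p = 0.000859) and differences of -1.94, -1.84 and -1.06 within the slides. Cdkn1a passed in all 17 alternative fits.

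Plk3 was at 0.98, 2.30 and 2.56 in ClipR-14 kidneys, against 0.90, 1.47 and 0.87 in Clip kidneys. ClipR-14 1 lay among the Clip arrays while the other ClipR-14 arrays were above them, and the change of 0.87 ± 0.40 did not pass (95% interval -0.05 to 1.78; limma, adjusted p = 0.118). Without ClipR-14 1 the change was 1.35 and passed (adjusted p = 0.00654).

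The dimmer Trp53 probe, at -1.40, -1.88 and -1.38 in ClipR-14 kidneys, was lower than in Clip kidneys by 1.10 ± 0.16 (limma, adjusted p = 0.000977), again with arms apart. The brighter one, at -0.56, -0.18 and -0.59 in ClipR-14 kidneys, overlapped with Clip (0.11 ± 0.13, adjusted p = 0.551). The second Sesn1 probe was higher in ClipR-14 kidneys, at -1.80, -1.95 and -1.85, than in Clip kidneys, by 0.61 ± 0.12 (adjusted p = 0.0037).

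Against control, 1 of the 9 genes passed in ClipR-14 kidneys, and it was Plk3, which was 4.29-fold lower. No gene of the 9 passed as higher, where 1.46% of all genes did, and 0.372% of all genes passed as lower (limma). An unadjusted limma p under 0.05 was found for 2 of the 9 and for 3811 of all 17741 genes. All 9 changes were below 0, where 51.9% of all genes were, with a median of -0.14 against -0.01 over all genes tested. The arms did not overlap for 2 of the 9 and for 27.2% of all genes. This comparison shares its control arrays with the first and its ClipR-14 arrays with the second.

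Plk3 was at 0.98, 2.30 and 2.56 in ClipR-14 kidneys, against 4.47 and 3.81 in sham and 3.85 in untreated kidneys. Every ClipR-14 array was below every control array, and ClipR-14 1, at the level of the Clip arrays, was the lowest. The change was -2.10 ± 0.40 (95% interval -3.01 to -1.19; limma, adjusted p = 0.0451), and -3.49, -1.52 and -1.29 within the slides. It stayed below 0 in all 17 alternative fits, between -2.41 and -1.62, but passed in 3 of them, with adjusted p from 0.0437 to 0.162. Leaving out 1 array at a time, it passed only without ClipR-14 1 (adjusted p = 0.0437); in the other 8 cases the adjusted p was at most 0.129.

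Ccng1 was the other gene with arms apart, at 2.57, 2.41 and 2.66 in ClipR-14 kidneys, against 2.86 and 2.85 in sham and 3.60 in untreated kidneys. Its change of -0.55 ± 0.22 did not pass (limma, adjusted p = 0.207; 0.0567 with slide as a block). Cdkn1a in ClipR-14 kidneys overlapped with control, with a change of -0.38 (95% interval -0.92 to 0.16). The intervals of the 6 remaining genes all held 0 and reached from -1.04 at the lowest, for Trp53inp1, to 0.45 at the highest, for Plk2.

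**Figure D3:**
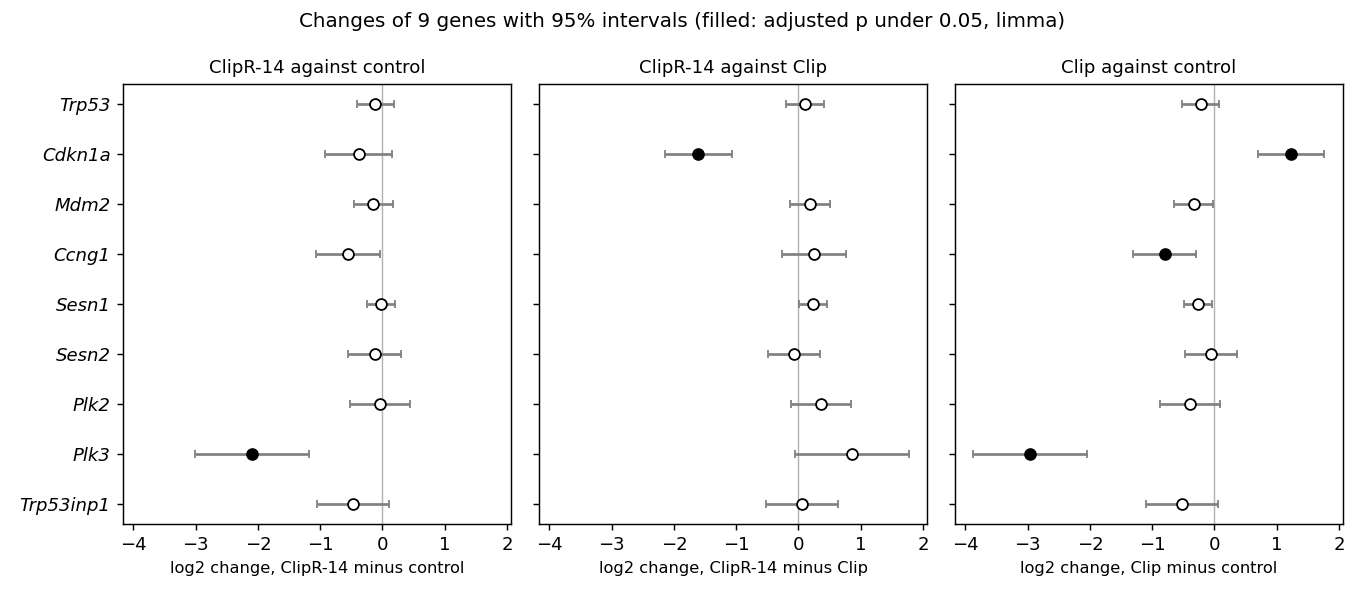
Log2 change of the 9 tested genes with 95% intervals in ClipR-14 against control, ClipR-14 against Clip and Clip against control, filled where the adjusted p was under 0.05. Cdkn1a is filled at 1.23 in Clip against control and at -1.61 in ClipR-14 against Clip, and Plk3 at -2.97 and -2.10 against control.

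**Figure D4:**
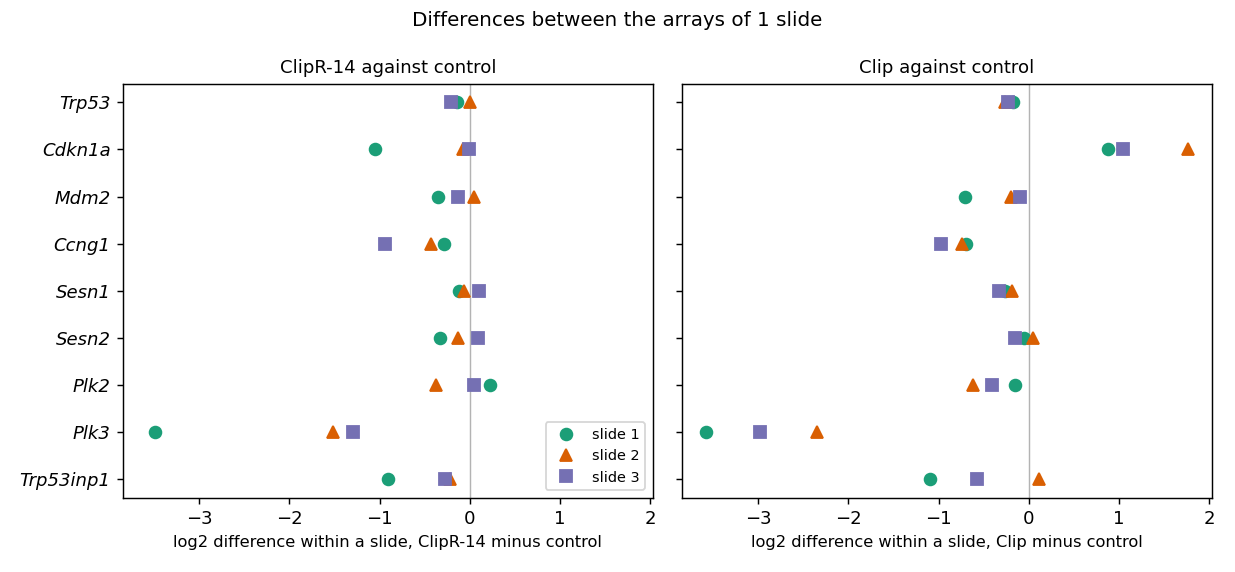
Log2 difference between the arrays of 1 slide for each of the 9 genes, ClipR-14 minus control (left) and Clip minus control (right), with a symbol for each of the 3 slides. Plk3 lies below 0 on all slides in both panels, from -3.57 to -1.29, and Cdkn1a above 0 on all slides in Clip minus control, from 0.88 to 1.76.

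Other genes of the pathway were counted in lists by role, in Clip against control kidneys first. Of all genes, 21.4% passed as higher and 27.6% as lower there. Of 32 other p53 target genes tested, 11 were higher and 7 lower, with a median change of 0.26. Those with the largest rises were Ckap2, a spindle protein (at least 5.63-fold higher in Clip, since no control array was well above background), and Rprm, which encodes the arrest protein Reprimo (2.44 ± 0.33 on the log2 scale, with 1 of 3 control arrays well above background). Bbc3, which encodes the death protein PUMA, was also higher (2.13 ± 0.17). So were Bax, its partner in cell death (0.57 ± 0.10), and Gdf15, a stress hormone (1.24 ± 0.15). These 3 are well-known p53 targets picked after their values were seen, and all were higher. They do not stand for the list, in which 7 genes were lower and 14 did not pass. The largest falls were those of Dcxr, a carbonyl reductase (-2.16 ± 0.18), and Tob1, an antiproliferative protein (-1.95 ± 0.13).

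Of 25 p53 kinases, ligases and cofactors, 8 were higher and 4 lower, with a median of -0.05. Brca1, a DNA repair gene, rose by 3.37 ± 0.18. Chek1, a DNA damage checkpoint kinase, was at least 1.58-fold higher in Clip (adjusted p = 0.0458), a call that was lost in 11 of 17 alternative fits. Trp53bp2, which encodes the p53 partner ASPP2, fell by 1.62 ± 0.15, and Rchy1, a p53 ubiquitin ligase, fell by 0.60 ± 0.12.

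Among 10 members of the p53 family and paralogues of the listed genes, 4 were higher and 3 lower, with a median of 0.11. The polo-like kinases differed: Plk1, which drives mitosis, rose by 3.93 ± 0.23, Plk4, which copies centrioles, was at least 3.29-fold higher, and Plk5 fell by 2.47 ± 0.21, against the fall of 2.97 for Plk3. Gadd45g, a growth arrest gene, fell by 1.09 ± 0.35, a call lost in 5 of 17 alternative fits.

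Of 9 other CDK inhibitors and pocket proteins, 4 were higher and 4 lower, with a median of 0.04. Cdkn3, a cell cycle phosphatase, rose by 3.36 ± 0.30 and Cdkn2b, which encodes p15, by 1.39 ± 0.30. Rbl2, a retinoblastoma relative, fell by 0.99 ± 0.12, and Cdkn1c, which encodes p57, fell by 0.52 ± 0.19, a call lost in 11 of 17 alternative fits.

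Proliferation genes were higher in Clip kidneys together with Cdkn1a. Of 12 G1 cyclins, CDKs and E2F factors 10 were higher and 1 lower, with a median of 0.97, and of 28 S phase and mitosis genes 26 were higher and 0 lower, with a median of 2.54. E2f7 and E2f8, repressors of the E2F family, were at least 4.71-fold and 3.52-fold higher, Ccnb1, the mitotic cyclin, at least 10.65-fold and Top2a, a topoisomerase that untangles chromosomes, at least 11.3-fold higher, and Ccnd3 fell by 0.37 ± 0.08. Of 13 senescence and secretory genes 7 were higher and 4 lower, with a median of 0.73; Mmp3, a matrix protease that was well above background on 1 of 3 control arrays, rose by 4.36 ± 0.29 and Ccl2, a monocyte chemokine, by 3.89 ± 0.24, while Glb1 and Igfbp3 fell by 1.06 ± 0.17 and 1.02 ± 0.17. The macrophage and fibroblast marker sums given above moved with these lists, and their part was not tested.

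**Figure D5:**
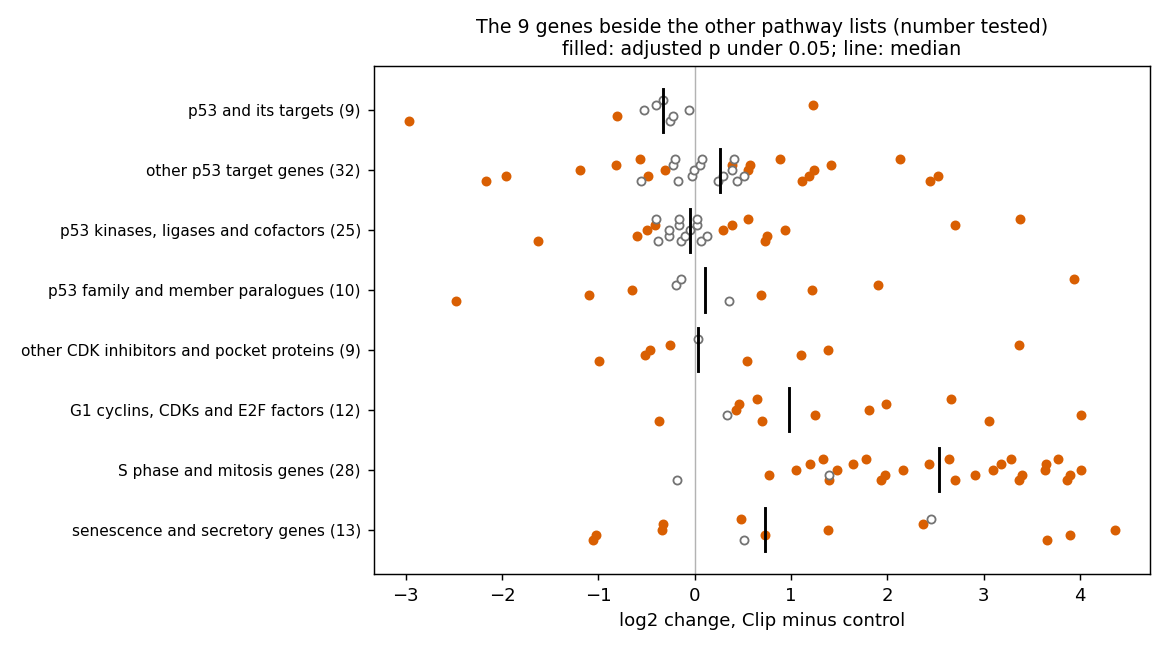
Log2 change in Clip against control for the 9 tested genes and for the genes of 7 pathway lists, 1 point per gene, filled where the adjusted p was under 0.05, with the median as a line. The 9 genes have a median of -0.33, while the 28 S phase and mitosis genes have a median of 2.54.

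In ClipR-14 against Clip kidneys the proliferation lists lay the other way, with 0 higher and 10 lower of the 12 G1 genes and 0 higher and 26 lower of the 28 S phase and mitosis genes. Aurkb, a mitotic kinase, was at least 4.14-fold lower, Top2a at least 9.41-fold lower and Ccne1, cyclin E1, fell by 3.23 ± 0.15 on the log2 scale. Other p53 targets were split, with 6 of 32 higher and 12 lower: Dcxr and Tob1 rose by 1.76 ± 0.18 and 1.53 ± 0.13, while Ckap2 was at least 4.72-fold lower and Rprm fell by 1.55 ± 0.33. The kinases, ligases and cofactors held 3 higher and 7 lower of 25, the family and paralogues 2 and 3 of 10, the CDK inhibitors and pocket proteins 3 and 2 of 9, and the senescence and secretory genes 4 and 7 of 13. Of all genes, 23.5% passed as higher and 17.4% as lower in this comparison. Plk5 rose by 2.13 ± 0.21 and Plk1 fell by 3.70 ± 0.23, while Plk3 itself did not pass.

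In ClipR-14 against control kidneys few of these genes passed, and few of all genes did (1.83%). In limma 0 of 32 other p53 targets passed (6 at an unadjusted p under 0.05), 0 of 25 kinases, ligases and cofactors (2), 0 of 10 family members and paralogues (1), 0 of 9 CDK inhibitors and pocket proteins (2) and 0 of 28 S phase and mitosis genes (4). Of all 17741 genes, 3811 had an unadjusted limma p under 0.05. These counts do not set the 5 lists apart from the background. E2f7 passed as higher, but no array of either arm was well above background, so no change is given. Ccl2 and Mmp3 were higher, by 1.92 ± 0.24 (adjusted p = 0.0212) and 1.87 ± 0.29 (adjusted p = 0.0314), calls lost in 7 and 10 of 17 alternative fits, and Mmp3 was well above background on 1 of 3 control arrays. Cdkn2b, at 1.42 ± 0.30, did not pass (adjusted p = 0.0544). With slide as a block, which called 6.56% of all genes, it passed (adjusted p = 0.0484), as did Casp1, an inflammatory caspase (0.80, adjusted p = 0.044), Trp53bp2 (-0.75, adjusted p = 0.0378) and Cdc25b, a mitotic phosphatase (0.59, adjusted p = 0.0442), 1 gene in each of 4 of the 5 lists that had none.

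For each tested gene the closest match in pattern over the 9 arrays was sought among all genes with a symbol, by Pearson's r. Arrays of an arm and of a slide share their treatment or their slide, so r is given as a description. Cdkn1a was most like Limk1 (r = 0.98) and Plekhg2 (0.98), and Plk3 most like Ccnt2 (0.97) and Peli1 (0.97). Ccng1 was most like Ppp1r21 (0.98) and Tdp2 (0.98), Sesn1 like Hvcn1 (0.98) and Mrps6 (0.97), and Trp53inp1 like Anapc16 (0.98) and Nsd1 (0.97). For Trp53 the closest were Zfand2a (0.93) and Hs6st3 (0.91), for Mdm2 Gmeb2 (0.91) and Nat8f5 (0.91), for Sesn2 Dnmt3a (0.92), and for Plk2 Zmiz2 (0.90) and Foxc2 (0.90). Ccnt2 and Peli1 were picked for a pattern like that of Plk3, so the same order of arms came with the choice. Their changes were smaller, at -0.49 and -0.42 in Clip and -0.38 and -0.24 in ClipR-14 against control, where Plk3 had -2.97 and -2.10.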

How the data were processed

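Kidney RNA of 9 samples was hybridized to single-colour Agilent mouse arrays. Per the file headers, the deposited intensity of a spot (gProcessedSignal) had its background subtracted and spatial trends removed by Agilent Feature Extraction. Other deposited columns are flags for background, saturation and outliers. The deposited table of log2 values was not used here, because its values do not match the probes its rows name.

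From these files, control spots and outlier-flagged spots were left out, spots of 1 probe were averaged, and log2 was taken of intensity over the 75th percentile of its array. Probe accessions were named through the RefSeq table: 26690 of 41174 probes had a symbol. A probe had to be well above background on at least 3 of 9 arrays, which 23543 were after outlier flags, and the brightest stood for its gene (17741 genes, 13017 with a symbol). Limma 3.58.1 in R 4.3.3 was fitted with 3 arms over 9 arrays. Benjamini-Hochberg adjustment of p ran over all genes, or over all probes where each probe was tested, with a threshold of 0.05. The method was tested on simulated data. Errors with a change are standard errors of the fit. An "at least" fold is given where a probe was not well above background on any array of its dimmer arm, whose level is then, per array, the higher of its own and the lowest well above background.

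Sham and untreated kidneys formed 1 control arm, as in the series' design. The alternatives were normexp background correction with an offset of 50, quantile normalization, no filter on dim probes, the mean of a gene's probes, replicate number or slide as a block, sham kidneys alone as control, only the arms compared, and leaving out each array. Normexp was planned on mean signals and run on median signals, which the files hold. Testing every probe was added after the data were seen. Deviations from the arm means correlated at 0.161 to 0.281 between arrays of 1 slide. Arrays with the same replicate number in the labels correlated at 0.161 to 0.269 where they shared a slide. Untreated 1 was on another slide than Clip 1 and ClipR-14 1, and correlated at -0.209 with each. Apart from the untreated array the numbers follow the slides, so these values cannot show a pairing by number beyond the shared slide. The numbers were not taken to pair the samples. The fit reported took no account of slide, which entered only as a block among the alternatives.

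The members and the gene lists were chosen with earlier results of these data known. Named genes are all members, the closest 2 genes to each in pattern (1 of them is not reported here), and from each pathway list the 2 largest rises and 2 largest falls among called genes, or those with the 2 smallest p; Bbc3, Bax and Gdf15 fall outside this rule and were chosen after their values were seen; genes of the marker lists are given as counts and sums.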

Additional observations from a re-analysis of the deposited data

How the results depend on the processing

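Changes of Cdkn1a in Clip against control and in ClipR-14 against Clip, and of Plk3 in Clip against control, kept their direction and passed in all 17 alternative fits. These fits are not 17 separate checks, because some repeat the same arrays or the same change. With normexp correction 5625 genes passed in Clip against control (8677 in the fit reported), 4144 in ClipR-14 against Clip (7269) and 1 in ClipR-14 against control (325). In that last comparison 115 passed with quantile normalization, 12 with no filter on dim probes, 1163 with slide as a block, 0 with only the 2 arms compared (3811 genes had an unadjusted p under 0.05 in the fit reported), and 2 to 343 with 1 array left out, the fewest without ClipR-14 2. With no filter, 13594 passed in ClipR-14 against Clip, 77.3% of them higher, against 57.5% in the fit reported; with slide as a block 64.6% of those called in ClipR-14 against control were higher, against 79.7%. The causes were not tested.

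Of the 9 listed genes 5 passed in Clip against control when probes of a gene were averaged and 6 with slide as a block (3 in the fit reported), where these settings called 8710 and 10338 of all genes. In ClipR-14 against Clip 2 passed with normexp, 2 with no filter, 3 with the mean of probes (7274 of all genes) and 1 to 2 with 1 array left out, the second being Plk3 without ClipR-14 1 (1 in the fit reported). In ClipR-14 against control 0 passed with normexp, quantile normalization, no filter, sham kidneys alone or only the 2 arms, and 0 to 1 with 1 array left out.

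The fit with a replicate block called 203 genes in ClipR-14 against control, with 0 of the 9 listed genes among them (Plk3, adjusted p = 0.063); it turned Sesn2 in Clip against control to 0.0347 and Sesn1 in ClipR-14 against control to 0.0064.

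Other directions turned as follows, all for changes that did not pass in the fit reported. In Clip against control Trp53 was 0.39 with probes averaged and 1.01 by its dimmer probe, and Sesn2 was 0.0935 with quantile normalization and -0.21 to 0.10 with 1 array left out. In ClipR-14 against control Sesn1 was 0.0018 with normexp, 0.0486 with quantile normalization, 0.0295 with probes averaged, 0.084 by its dimmer probe and -0.064 to 0.0208 with 1 array left out; with 1 left out Sesn2 was -0.22 to 0.0341 and Plk2 -0.24 to 0.19. In ClipR-14 against Clip Trp53 was -0.50 with probes averaged, -1.10 by its dimmer probe and -0.0236 to 0.18 with 1 array left out. There Mdm2 was -0.0879 and Ccng1 -0.23 by their dimmer probes, Sesn2 was 0.0744 with normexp and -0.18 to 0.088 with 1 left out, and Trp53inp1 was -0.0258 with quantile normalization and -0.0737 to 0.21 with 1 left out. Normexp moved the median of all genes in Clip against control, at -0.09 as reported, to 0.10, and quantile normalization moved it to -0.002. With quantile normalization 52.9% of the genes called there were higher, against 43.7% in the fit reported. Changes of about the size of these shifts have no settled direction.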
